A study of Homo sapiens with 8 samples.

Results

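The comparison described here sets HSC39 cells given TRIM44 siRNA 7 against HSC39 cells given the negative siRNA. Its members were taken from the sample titles: 2 arrays of siRNA 7 and 4 arrays of negative siRNA, which are 6 of the 8 arrays of the series. The remaining 2 arrays, of a second reagent, TRIM44 siRNA 9, were used to estimate the spread and are given beside the results where the reagents were compared. HSC39 is a gastric cancer line of signet ring type. All groups share the cell line, the medium with fetal calf serum and a transfection. The protocol text gives 100 nM siRNA for 48 h and names TRIM44 siRNA for every sample, the series text speaks of untreated cells, and the treatment label of the control arrays is "All stars negative SiRNA". The groups were formed from the treatment labels. Values are log2 levels per probe set, a group of short array probes that together report on 1 transcript, and the analysis covers the 19158 probe sets with exactly 1 gene symbol, of 18404 genes. The series counts 4 biological replicates per condition with both TRIM44 reagents in 1 condition, and does not say how the 2 arrays of a reagent were obtained. Separate cultures are not stated for them, so each p-value here measures only the spread between samples that may be technical replicates.

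A small interfering RNA is loaded into an Argonaute protein and directs cleavage of transcripts that match it, and it can also lower other transcripts that pair with its first bases. For that reason more than 1 reagent is commonly used against a target. TRIM44 is a tripartite motif protein without the RING domain that makes most of its relatives ubiquitin ligases. It has a zinc finger of the kind found in ubiquitin-specific proteases and is known to stabilise some of its partner proteins. Ubiquitin is attached to proteins by a chain of conjugating enzymes and ligases and taken off by proteases, and several of the genes below belong to that system. Signet ring cells are mucin-filled, and the line is described below by its secretory and intestinal genes as well.

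Array medians lay between 6.78 and 6.87, and pairs of the 6 arrays correlated at 0.991 to 0.997 across probe sets. The mean log2 level of 7 epithelial markers was 11.69 to 11.84 in the negative arrays and 11.74 and 11.69 in the siRNA 7 arrays. For 7 intestinal and goblet markers the mean was 10.38 to 10.48 in negative arrays and 10.36 and 10.47 with siRNA 7, and for the 6 of 7 gastric markers measured it was 6.47 to 6.59, then 6.54 and 6.41. Markers of other cell types had means of 6.53 to 6.67 in negative arrays and 6.70 and 6.51 with siRNA 7 (8 mesenchymal), 5.19 to 5.54 and then 5.32 and 5.27 (5 of 6 leukocyte), and 5.97 to 6.23 and then 6.08 and 5.92 (3 endothelial). No marker in these 6 lists passed the threshold. The deposited values carry no detection call, so a dim probe set cannot be told from an absent transcript, and levels of different probe sets are not compared.

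TRIM44, the targeted gene on chromosome 11, fell with siRNA 7. Its log2 level was 11.91, 12.02, 11.91 and 11.77 in the negative arrays and 10.85 and 11.27 in the siRNA 7 arrays. Both siRNA 7 arrays lay below all negative arrays, array 1 further than array 2. TRIM44 thus fell by 0.84 on the log2 scale (SE 0.12, limma adjusted p = 0.0405), to 55.8% of the negative level (95% interval 46.5% to 67.0%). In the bulk RNA of a culture, fewer cells with the transcript and less transcript per cell cannot be told apart. Permuting the 6 arrays exactly, 2-sided, gave p = 0.133 for the difference of means, and its 15 assignments cannot reach 0.05. Without siRNA 7 array 1 the difference was -0.63, and without array 2 it was -1.05. With siRNA 9 the difference was -0.78, so that siRNA 7 minus siRNA 9 was -0.06 (95% interval -0.36 to 0.24, limma adjusted p = 0.903). None of 56 further measured genes of the TRIM family was called. Of these, 2 (3.57%) had an unadjusted p under 0.05, beside 7.41% of all genes. They were TRIM29 at -0.28 and TRIM14 at -0.22. Among 14 measured neighbours of TRIM44 on its chromosome none was called. FJX1, with 0.43, was the 1 gene (7.14%) at an unadjusted p under 0.05, near the share of all genes.

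Across all genes, 13 of the 19158 probe sets passed a limma adjusted p of 0.05 (0.0679%), and such genes are named as called below. After median centring, and with the 6 arrays compared alone, CLCA1 was the 1 call left, and a test of all 32321 probe sets gave 0, so that none of the lower calls, TRIM44 included, was kept in these 3 settings. Of these, 1 was higher with siRNA 7 (0.00522%) and 12 were lower (0.0626%), TRIM44 among them. The higher gene was CLCA1. The lower genes were, beside TRIM44, USP28, HECTD3 and FBXO28 of the ubiquitin system, ASF1A and MBNL3 of chromatin and RNA, CYP2S1, ALDH9A1 and PHYH of oxidative metabolism, and CIAO2A, REEP3 and CAP2. In RefSeq (GRCh38.p14) CLCA1, HECTD3, FBXO28 and ALDH9A1 lie on chromosome 1, ASF1A and CAP2 on 6, PHYH and REEP3 on 10, TRIM44 and USP28 on 11, CIAO2A on 15, CYP2S1 on 19 and MBNL3 on X. Without adjustment, p was under 0.05 in 1430 probe sets (7.46%), 538 of them higher (2.81%) and 892 lower (4.66%). Both siRNA 7 arrays lay above all 4 negative arrays in 1223 probe sets (6.38%) and below them in 1531 (7.99%). The median difference over all genes was -0.002.

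**Figure D1:**
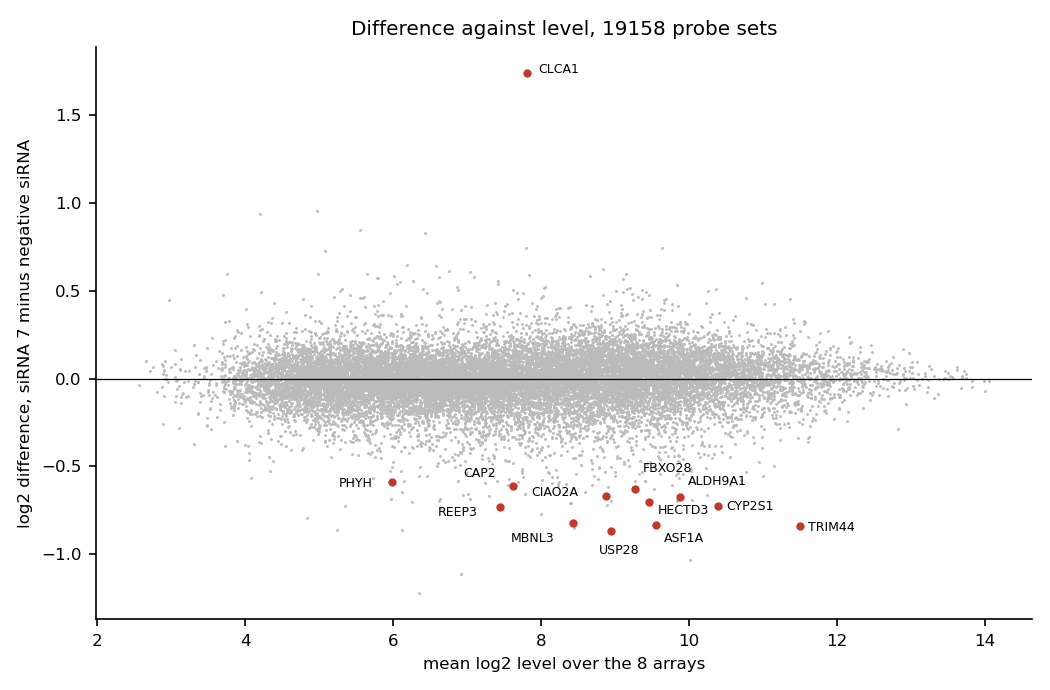
Log2 difference, siRNA 7 minus negative siRNA, of each of the 19158 probe sets (vertical axis) against its mean log2 level over the 8 arrays (horizontal axis), with the 13 called probe sets marked. CLCA1 stands above the cloud at 1.74, and the called lower probe sets lie between -0.87 and -0.59.

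CLCA1 encodes a calcium-activated chloride channel regulator that goblet cells secrete with their mucus. Its log2 level was 7.13, 7.79, 7.53 and 7.13 with negative siRNA and 9.16 and 9.10 with siRNA 7. The siRNA 7 arrays lay close together and above every negative array. CLCA1 rose by 1.74 on the log2 scale (SE 0.16, limma adjusted p = 0.00429), a 3.34-fold higher level. With siRNA 9 the difference was -0.05, and the difference between reagents was 1.79 (95% interval 1.38 to 2.20, adjusted p = 0.00264). Its relatives CLCA2, at 0.12, and CLCA4, at 0.02, did not pass the test.

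Among 27 measured genes of goblet cell secretion, 17 had a difference above 0 and CLCA1 was the 1 called. The median was 0.11, with 0.13 in siRNA 7 array 1 and 0.04 in array 2, while each negative array against the other 3 gave -0.21 to 0.18. SPDEF, a transcription factor of goblet cell maturation, stood at 11.52, 11.50, 11.45 and 11.47 in negative arrays and at 11.83 and 11.76 with siRNA 7. Its difference of 0.31 did not pass (adjusted p = 0.330). Both siRNA 7 arrays lay above all negative arrays, as they did in 6.38% of all genes. ATOH1, which commits intestinal precursors to the secretory lineage, had 0.18, and MUC2, the main gel-forming mucin of the intestine, had 0.15. Other goblet genes lay on the opposite side. SPINK4, a secreted protease inhibitor, had -0.48 and ST6GALNAC1, which adds sialic acid to mucin sugars, had -0.31. Of 17 measured mucin genes 7 lay above 0, none was called and none reached an unadjusted p of 0.05.

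**Figure D2:**
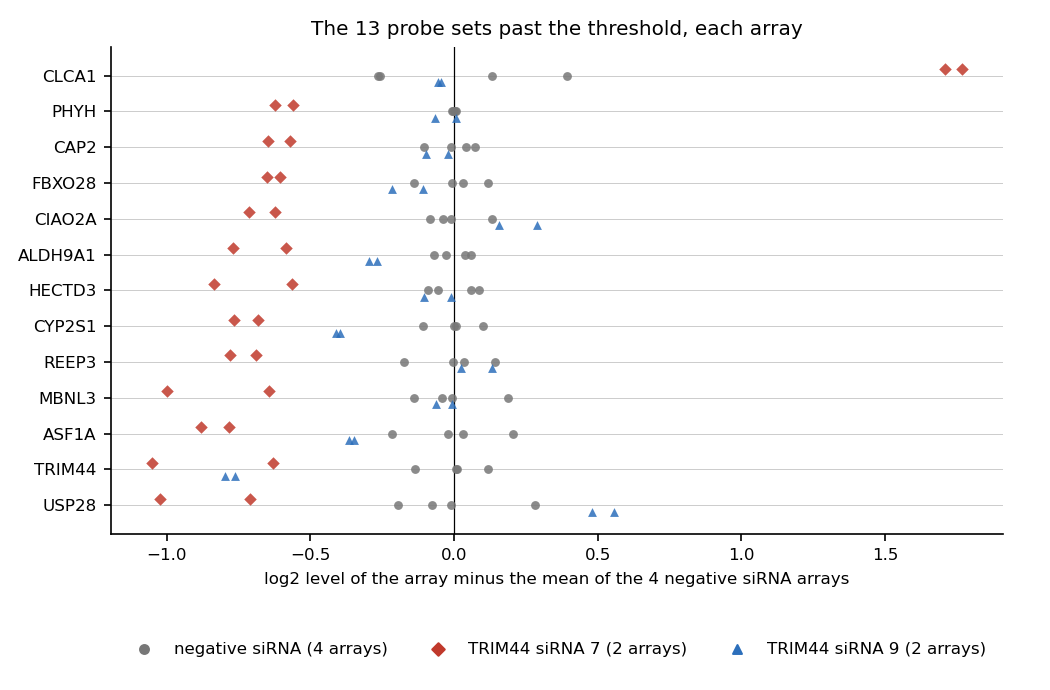
Log2 level of each called probe set relative to the mean of the 4 negative arrays, for every negative, siRNA 7 and siRNA 9 array. Both siRNA 7 arrays lie outside the negative arrays for all 13, and both siRNA 9 arrays lie on the opposite side of 0 for CLCA1, REEP3, CIAO2A and USP28.

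USP28, HECTD3 and FBXO28 are parts of the ubiquitin system, and all fell with siRNA 7. USP28 is a protease that removes ubiquitin from proteins such as MYC. Its log2 level was 8.84, 9.32, 8.96 and 9.02 in negative arrays and 8.01 and 8.32 with siRNA 7. The difference was -0.87 (SE 0.13, limma adjusted p = 0.04998), 54.8% of the negative level. With siRNA 9 it was 0.52, and siRNA 7 minus siRNA 9 was -1.39 (95% interval -1.72 to -1.05, adjusted p = 0.0033). Of 49 measured ubiquitin-specific proteases 27 lay above 0. After USP28 the smallest unadjusted p-values were those of USP2, at -0.37, and USP27X, at -0.28, neither called.

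HECTD3 is a ligase of the HECT class, which carries ubiquitin on its own cysteine before passing it to a substrate. It stood at 9.56, 9.74, 9.60 and 9.71 with negative siRNA and at 8.82 and 9.09 with siRNA 7. Both siRNA 7 arrays were below all others, with a difference of -0.70 (SE 0.10, limma adjusted p = 0.0417). With siRNA 9 it was -0.06, and siRNA 7 minus siRNA 9 was -0.64 (adjusted p = 0.0215). Of 25 measured HECT ligases 15 lay below 0, with a median of -0.04. HERC3 at -0.37 and SMURF2 at -0.19 had unadjusted p-values under 0.05, and SMURF1, the close relative of SMURF2, had 0.18 with both siRNA 7 arrays, at 9.73 and 9.78, above the negative arrays, at 9.57 to 9.60. None of these 3 was called.

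FBXO28 is an F-box protein, the part of an SCF ubiquitin ligase that selects the substrate. Its values were 9.32, 9.58, 9.45 and 9.49 in negative arrays and 8.86 and 8.81 with siRNA 7, which do not overlap. The difference was -0.63 (SE 0.10, limma adjusted p = 0.04998), with -0.16 for siRNA 9 and a difference between reagents of -0.47 (95% interval -0.71 to -0.22, adjusted p = 0.0535) that did not pass. Of 60 F-box genes, a list chosen after values were seen, 40 lay below 0 and 10 had both siRNA 7 arrays below all negative arrays, beside 8.03% of all genes. Beside FBXO28 the lowest unadjusted p-values belonged to FBXO30 at -0.28, FBXO45 at -0.30 and FBXO4 at -0.31.

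Further parts of the ubiquitin system were not called. COPS8, a subunit of the COP9 signalosome that takes NEDD8 off cullins, stood at 7.87, 7.90, 7.92 and 7.83 with negative siRNA and at 7.26 and 7.47 with siRNA 7. Its difference was -0.52 (limma adjusted p = 0.0856). DCUN1D3, which helps attach NEDD8 to cullins, lay on the other side at 0.59 (adjusted p = 0.0856), from 8.64, 8.98, 8.89 and 8.99 to 9.40 and 9.53. The adaptors KLHL13, at -0.47, and KLHL12, at -0.33, also had unadjusted p-values under 0.05. In all, 18 of 38 cullin and neddylation genes lay above 0, 5 had both siRNA 7 arrays above the negative arrays and 9 had both below, beside 6.38% and 8.03% of all genes. Of 26 conjugating enzymes 20 lay above 0, where 49.2% of all genes did. Their median was 0.02 in siRNA 7 array 1 and 0.11 in array 2, and the negative arrays ranged from -0.01 to 0.05. UBE2S, which extends ubiquitin chains for the anaphase-promoting complex, had 0.45 on its brighter probe set and 0.37 on the other, and UBE2G2, of endoplasmic reticulum degradation, had 0.36.

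ASF1A, a histone chaperone that carries histones H3 and H4 to chromatin, fell with siRNA 7. Its log2 level was 9.64, 10.06, 9.88 and 9.83 in negative arrays and 8.97 and 9.07 in siRNA 7 arrays, a gap with no overlap. The difference was -0.83 (SE 0.11, limma adjusted p = 0.0405), 56.1% of the negative level. With siRNA 9 it was -0.36, and siRNA 7 minus siRNA 9 was -0.48 (95% interval -0.76 to -0.19, adjusted p = 0.0856). ASF1B, its paralog of dividing cells, was at 10.85, 10.87, 10.87 and 10.88 with negative siRNA and at 10.63 and 10.64 with siRNA 7. That difference of -0.24 did not pass (adjusted p = 0.498). The arrays did not overlap, and 8.03% of all genes likewise had both siRNA 7 arrays below all negative arrays. Of 39 histone chaperones 26 lay above 0, among them DNAJC9 at 0.23. Of 53 clustered histone genes 34 lay below 0, with a median of -0.04 and none called. These genes are near-identical copies, so their probe sets may share signal.

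MBNL3 belongs to the muscleblind family, which binds RNA and controls alternative splicing. It was at 8.64, 8.60, 8.83 and 8.51 with negative siRNA and at 8.0 and 7.65 with siRNA 7, where array 2 was the lower. MBNL3 fell by 0.82 on the log2 scale (SE 0.12, limma adjusted p = 0.0417). With siRNA 9 the difference was -0.04, and siRNA 7 minus siRNA 9 was -0.79 (adjusted p = 0.0179). Within the family, MBNL2 had -0.38, from 10.41, 10.57, 10.47 and 10.28 to 10.12 and 9.98, and MBNL1 had 0.08. Neither of these was called. Of 50 splicing regulators 29 lay above 0. UHMK1, a kinase of splicing factors, had 0.53, and PTBP2, the neuronal relative of a splicing repressor, had 0.34 with siRNA 7 beside -0.64 with siRNA 9.

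CYP2S1, ALDH9A1 and PHYH are enzymes of oxidative metabolism, and all fell. CYP2S1 is a cytochrome P450 of epithelia. Its log2 level was 10.57, 10.78, 10.67 and 10.68 in negative arrays and 9.99 and 9.91 with siRNA 7, a difference of -0.72 (SE 0.09, limma adjusted p = 0.0405). With siRNA 9 it was -0.40, and the difference between reagents, -0.32 (95% interval -0.55 to -0.09, adjusted p = 0.150), did not pass. Of 47 measured P450 genes 17 lay above 0, and members differed in direction. CYP2B6, a drug-metabolising enzyme, was at 6.81, 6.06, 6.58 and 5.97 with negative siRNA and at 7.29 and 7.08 with siRNA 7, the largest difference above 0 after CLCA1 when each gene is taken by its brightest probe set. It was 0.83 and did not pass (adjusted p = 0.227), with -0.53 for siRNA 9. CYP2U1, a fatty acid hydroxylase, had -0.41 and CYP1A1, a target of the aryl hydrocarbon receptor, had 0.31.

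ALDH9A1 oxidises aldehydes made in carnitine and GABA synthesis. It stood at 10.15, 10.09, 10.17 and 10.04 in negative arrays and at 9.53 and 9.34 with siRNA 7, well below them. The difference was -0.68 (SE 0.09, limma adjusted p = 0.0405), with -0.28 for siRNA 9 and -0.39 between reagents (adjusted p = 0.0794). Of 19 aldehyde dehydrogenase genes, a list chosen after values were seen, 12 lay below 0 and 8 had both siRNA 7 arrays below all negative arrays, beside 8.03% of all genes. ALDH6A1, a mitochondrial enzyme of valine breakdown, was at 10.24, 10.19, 10.20 and 10.15 with negative siRNA and at 9.77 and 9.23 with siRNA 7. Its difference of -0.69 did not pass (adjusted p = 0.0856), and a dimmer probe set gave -0.55. ALDH3B1 and ALDH7A1 each had -0.23, and ALDH2, which clears acetaldehyde, had -0.21.

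PHYH is the peroxisomal enzyme that starts the oxidation of phytanic acid, a branched fatty acid. Its values were 6.15, 6.14, 6.15 and 6.14 in negative arrays, unusually close together, and 5.58 and 5.52 with siRNA 7. The difference was -0.59 (SE 0.08, limma adjusted p = 0.0405), with -0.03 for siRNA 9 and -0.56 between reagents (adjusted p = 0.0175). Among 16 genes of peroxisomal lipid oxidation, also listed after values were seen, 12 lay below 0. Catalase (CAT), which breaks down the peroxide made there, had -0.42, and EHHADH, of peroxisomal beta-oxidation, had -0.31. Neither was called. GSTA2, a glutathione transferase, was at 8.74, 8.84, 8.64 and 8.36 with negative siRNA and at 8.02 and 7.57 with siRNA 7. Its difference of -0.85 did not pass (adjusted p = 0.0783). Glutathione transferases are close paralogs, so their probe sets may share signal, and 8 of 20 lay above 0.

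The other called genes were CIAO2A, REEP3 and CAP2. CIAO2A works in the cytosolic assembly of iron-sulfur proteins. It was at 8.91, 9.12, 8.95 and 8.98 with negative siRNA and at 8.28 and 8.37 with siRNA 7, a difference of -0.67 (SE 0.10, limma adjusted p = 0.0405). With siRNA 9 it was 0.22, and siRNA 7 minus siRNA 9 was -0.89 (95% interval -1.13 to -0.65, adjusted p = 0.00595). Of 8 genes of this pathway, listed after values were seen, 6 lay above 0 and CIAO2A was the 1 with an unadjusted p under 0.05.

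REEP3, which clears endoplasmic reticulum from chromosomes in mitosis, was measured by 2 probe sets. The dimmer was at 7.43, 7.75, 7.64 and 7.60 in negative arrays and at 6.92 and 6.83 with siRNA 7, and was called at -0.73 (SE 0.10, limma adjusted p = 0.0405). The brighter was at 9.90, 10.09, 9.97 and 9.90, then 9.33 and 9.54, and did not pass at -0.54 (adjusted p = 0.0980). In both, the siRNA 7 arrays lay below all negative arrays, and both differed between reagents, by -0.81 (adjusted p = 0.0104) and -0.59 (adjusted p = 0.0275).

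CAP2 binds actin monomers and aids filament turnover. Its values were 7.69, 7.83, 7.78 and 7.86 with negative siRNA and 7.22 and 7.14 with siRNA 7, a difference of -0.61 (SE 0.09, limma adjusted p = 0.0417). With siRNA 9 it was -0.06, and siRNA 7 minus siRNA 9 was -0.55 (adjusted p = 0.0235). CFL2, a cofilin that severs the same filaments, had -0.61 as well, from 8.15, 8.38, 8.47 and 8.68 to 7.51 and 8.10, and did not pass (adjusted p = 0.306).

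How many genes were called depended on the setting and on single arrays. With every array kept there were also 64 calls among the upper 50% of probe sets, 70 with array weights and 83 with a trended robust prior. With the number in the sample title as a replicate block there were 0. Without negative array 1 there were 4 calls, without negative array 2 there were 35, and without negative array 3 or 4 there was 1, CLCA1. Without siRNA 7 array 1 there were 32 and without siRNA 7 array 2 there were 4. Leaving out either siRNA 9 array gave the same fit as the 6 arrays alone, since a single siRNA 9 array adds nothing to the spread. The 16 alternative settings thus count that fit more than once. CLCA1 was called in 14 of the 16, and stood at 1.65 to 1.87 in the 8 that leave out an array. CYP2S1 was called in 7 of 16, and TRIM44, ASF1A, ALDH9A1 and MBNL3 in 6 each. Each of these genes kept its direction in all of those settings. For the 7 remaining called probe sets the count was 4 or 5 of 15 or 16 settings.

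After CLCA1, the genes of smallest p on the higher side did not pass and are given as values. UBXN8, which tethers the p97 segregase at the endoplasmic reticulum, was at 9.03, 8.92, 9.12 and 8.86 with negative siRNA and at 9.55 and 9.54 with siRNA 7. The difference was 0.56 (limma adjusted p = 0.0699), with -0.08 for siRNA 9 and 0.64 between reagents (adjusted p = 0.0175). ARRDC3, an arrestin that sends receptors to ubiquitin ligases, had 0.74, from 9.29, 9.63, 9.45 and 9.28 to 10.36 and 9.96. GCG, the gene of glucagon and GLP-1, had 0.73, from 4.85, 5.24, 4.86 and 4.71 to 5.63 and 5.66, and both had an adjusted p of 0.0783. In each of these the siRNA 7 arrays lay above every negative array, which was a condition for choosing them and is no further evidence.

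DESI2, DCUN1D3, MRPL50 and SAMD5 were near alike with both reagents. DESI2, a desumoylating isopeptidase, had 0.53 with siRNA 7 and 0.63 with siRNA 9. MRPL50, of the mitochondrial ribosome, had 0.46 and 0.45, and SAMD5 had 0.58 and 0.78. The 95% interval of the difference between reagents covers 0 in each, and all share the 4 negative arrays. PER2, a circadian repressor, went the other way with siRNA 9. It was at 9.42, 9.16, 9.31 and 9.29 with negative siRNA and 9.88 and 9.72 with siRNA 7, a difference of 0.50 beside -0.23 for siRNA 9 (difference 0.73, adjusted p = 0.0127). SLC28A2, a nucleoside transporter, had 0.55 beside -0.30 (difference 0.85, adjusted p = 0.012). AASDHPPT, which attaches phosphopantetheine to carrier proteins, had 0.45 beside -0.17 on its brighter probe set (difference 0.61, adjusted p = 0.0142). YRDC and AIRIM had 0.51 and 0.60 with siRNA 7 and did not differ between reagents past the threshold.

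**Figure D3:**
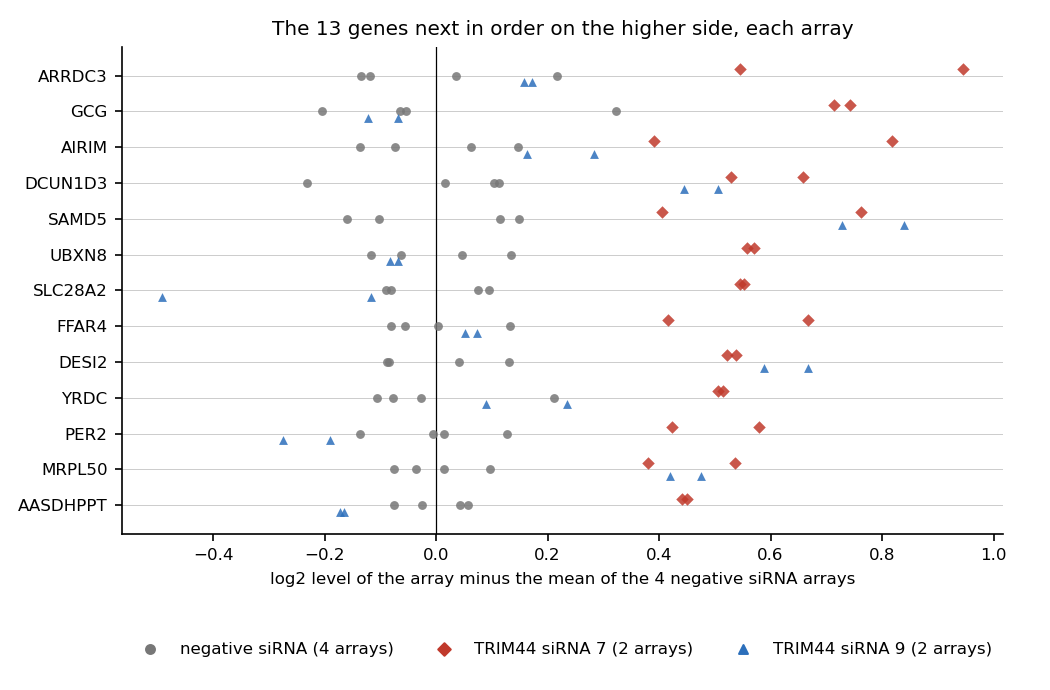
Log2 level relative to the mean of the negative arrays for genes of smallest p above 0 that did not pass, by array. The siRNA 7 points lie above all negative points for each gene because the genes were chosen by that condition. The siRNA 9 means lie near the siRNA 7 means for DESI2, DCUN1D3, MRPL50 and SAMD5.

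GCG and FFAR4 are also genes of enteroendocrine cells, the hormone-secreting cells of the gut. FFAR4, a fatty acid receptor, was at 10.79, 10.76, 10.84 and 10.97 with negative siRNA and 11.26 and 11.51 with siRNA 7, a difference of 0.54 (limma adjusted p = 0.0856). RFX6, a transcription factor of endocrine precursors, had 0.60, and SYP, a protein of secretory vesicles, had 0.44. GCG and RFX6 were dim, below the array medians of 6.78 to 6.87 in every array. Without detection calls it cannot be told whether these 2 transcripts were present. Over 21 enteroendocrine genes, a list chosen after these values were seen, 9 lay above 0. The median was -0.03, with 0.10 in siRNA 7 array 1 and -0.04 in array 2, inside the range of the negative arrays. Of these 21 genes, 5 had an unadjusted p under 0.05, all above 0 (2.77% of all genes), and none was called.

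On the lower side, SASH1 and ZNF528 came next after the called genes. SASH1, an adaptor with SH3 and SAM domains, stood at 8.34, 8.38, 8.39 and 8.29 with negative siRNA and at 7.81 and 7.68 with siRNA 7. Its difference of -0.60 had a limma adjusted p of 0.0526, and ZNF528, a zinc finger gene, had the same p at -0.74. Both differed from siRNA 9, by -0.72 (adjusted p = 0.0112) and -0.76 (adjusted p = 0.0181). DICER1, the enzyme that cuts microRNA precursors, was at 10.55, 10.84, 10.69 and 10.80 in negative arrays and at 10.06 and 10.21 with siRNA 7. Its difference was -0.58 (adjusted p = 0.0783), with -0.04 for siRNA 9. Of 21 genes of the small RNA machinery 9 lay above 0 and none was called.

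Some of the largest differences below 0 did not pass, and in 2 genes the siRNA 7 arrays differed widely. TSPAN7, a tetraspanin, was at 10.34, 10.05, 10.47 and 10.39 with negative siRNA and at 10.02 and 8.54 with siRNA 7, so that array 2 alone was far lower. The difference of -1.03 had a limma adjusted p of 0.306. SNORA15, a small nucleolar RNA, had -0.86 on one probe set, where array 1 was at 3.64 and array 2 at 5.27, and -0.06 on the other. SMIM8, a small membrane protein, had closer values, at 7.84, 8.40, 8.02 and 8.14 and then 7.44 and 7.21. It had -0.77 (adjusted p = 0.0783) and differed from siRNA 9 by -1.13 (adjusted p = 0.0092). On the higher side FKBP14, a prolyl isomerase of the endoplasmic reticulum, had 0.74. STEAP2 and STEAP1, metalloreductases, each had 0.64, which came mainly from array 2, at 7.03 and 7.71 against 6.34 and 6.49 in array 1.

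The gene lists were described by counts and medians over 1 probe set per gene, beside all 18404 genes, of which 49.2% lay above 0. Of 35 lists, 2 had both siRNA 7 arrays' medians outside the range of the negative arrays, ribosome biogenesis above and interferon response below. Among single probe sets, 14.4% had both siRNA 7 arrays outside the negative arrays on 1 side. That share is of another measure, since list medians run over many genes and set each negative array against the rest. No expected share for lists was computed, so 2 of 35 is a count only.

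Ribosome biogenesis genes lay above 0 in 66 of 71 cases, with a median log2 difference of 0.15. The list median was 0.07 in siRNA 7 array 1 and 0.21 in array 2, relative to the negative mean, while the negative arrays, each against the other 3, were at -0.09, 0.02, 0.03 and 0.01. Values of negative arrays for lists are given in this way throughout. None of these genes was called. At an unadjusted p under 0.05 there were 12, all above 0, where 7.41% of all genes had such a p and 2.77% had it above 0. For 25 of them (6.38% of all genes) the siRNA 7 arrays both exceeded every negative array, and for 1 both lay below.

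HEATR1, a factor of ribosomal RNA transcription and processing, was at 9.86, 10.20, 10.01 and 9.89 with negative siRNA and at 10.40 and 10.45 with siRNA 7. Its difference of 0.43 had a limma adjusted p of 0.229. RRS1, which assembles the large subunit, had 0.37, from 10.21, 10.21, 10.32 and 10.34 to 10.57 and 10.71. RRP12, which exports both subunits, had 0.32, UTP14A of the small subunit processome had 0.25, GNL2 of nucleolar large subunit maturation had 0.24 and the helicase DDX21 had 0.23. NOL6, a small subunit factor, showed the spread between the siRNA 7 arrays, at 9.30 and 10.00 beside 9.19 to 9.38 in negative arrays. With siRNA 9 the list median was 0.01. The 74 mitochondrial ribosomal proteins had 58 above 0 and a median of 0.07, with 0.01 in array 1 and 0.12 in array 2. The negative arrays ranged from -0.05 to 0.07 for these proteins. The proteins include MRPS18A at -0.48, from 11.15, 11.16, 11.12 and 11.01 to 10.61 and 10.65, beside MRPL50 on the opposite side.

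**Figure D4:**
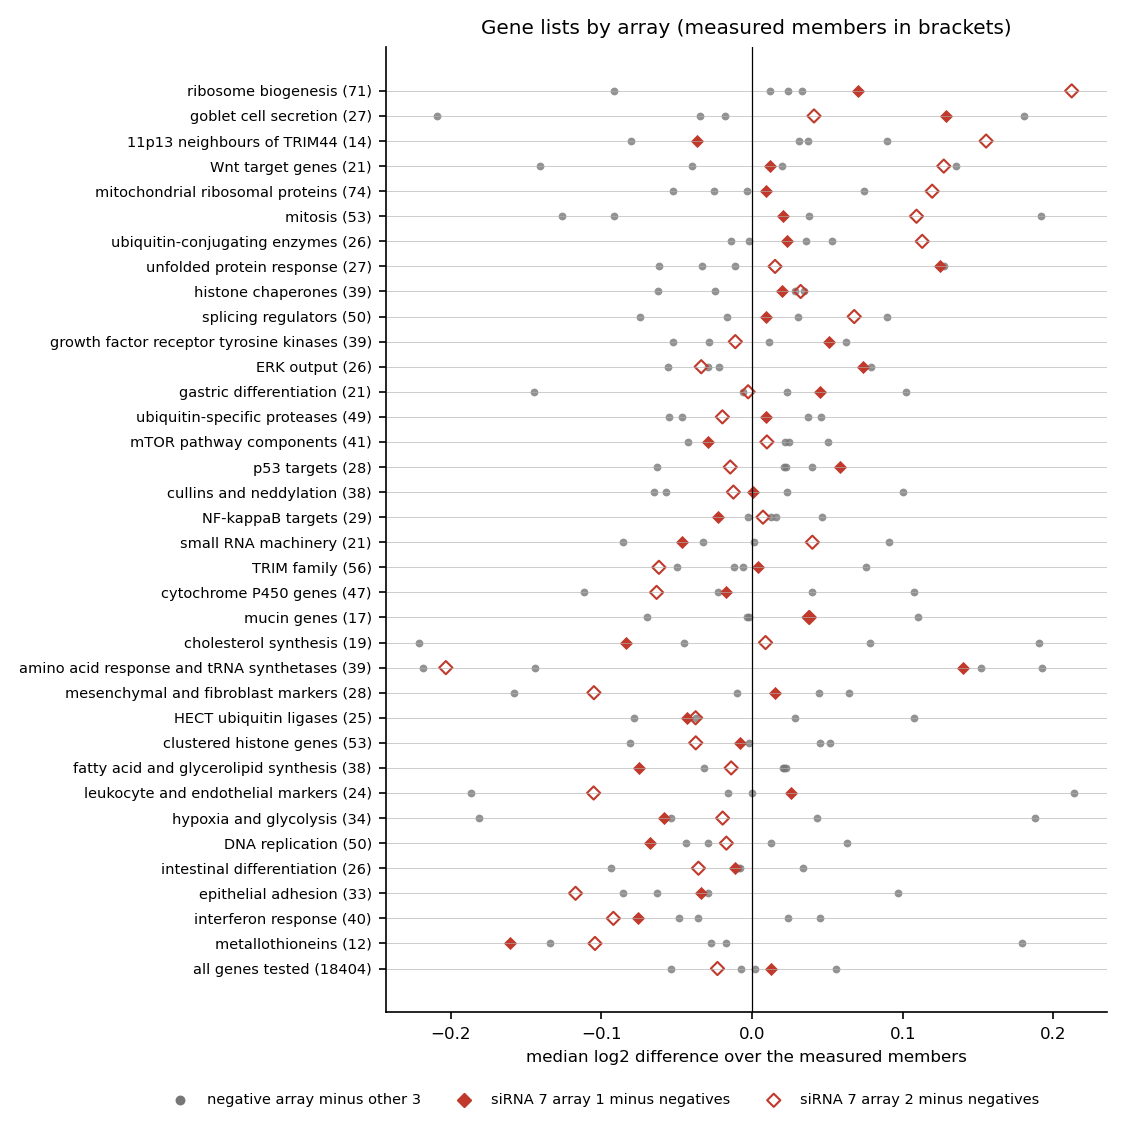
Median log2 difference over the measured genes of each of the 35 lists and over all genes, for the siRNA 7 arrays against the mean of the 4 negative arrays and for each negative array against the other 3. Ribosome biogenesis at 0.07 and 0.21 and interferon response at -0.08 and -0.09 are the lists whose siRNA 7 points both lie outside the negative points on 1 side.

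Interferon response genes lay below 0 in 30 of 40 cases, with a median of -0.10. These genes are switched on by interferon through STAT and IRF proteins, which bind repeated GAAA elements in their promoters. Such an element was looked for as GAAA, any 2 bases and GAAA again, on either strand, in the 250 bases before each transcript start in RefSeq (GRCh38.p14). It was in 24 of 43 promoters of the list (55.8%), of 21 of the 32 genes with a promoter in the table, and in 3.02% of all 35116 promoters. The sequences of TAP1, PARP9 and SAMD9 are shown. Among list members whose promoters hold the element, these had the smallest unadjusted p-values in limma, and their differences lay below 0. Capitals mark the matches, which in TAP1 overlap and which read TTTC, 2 bases and TTTC where the element lies on the opposite strand. TAP1 is at chr6:32853705-32853954, PARP9 at chr3:122564301-122564550 and SAMD9 at chr7:93117980-93118229, all on the minus strand and printed in the direction of transcription.
TAP1: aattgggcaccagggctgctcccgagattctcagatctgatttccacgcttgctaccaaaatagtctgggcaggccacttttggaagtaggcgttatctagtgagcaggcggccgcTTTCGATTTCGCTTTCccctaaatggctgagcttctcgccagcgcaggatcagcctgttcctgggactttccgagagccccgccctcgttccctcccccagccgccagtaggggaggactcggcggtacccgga
PARP9: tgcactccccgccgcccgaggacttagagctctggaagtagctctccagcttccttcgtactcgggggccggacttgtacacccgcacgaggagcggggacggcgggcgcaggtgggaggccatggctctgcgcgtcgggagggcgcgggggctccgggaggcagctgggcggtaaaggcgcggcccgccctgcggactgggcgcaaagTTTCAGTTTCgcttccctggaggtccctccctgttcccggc
SAMD9: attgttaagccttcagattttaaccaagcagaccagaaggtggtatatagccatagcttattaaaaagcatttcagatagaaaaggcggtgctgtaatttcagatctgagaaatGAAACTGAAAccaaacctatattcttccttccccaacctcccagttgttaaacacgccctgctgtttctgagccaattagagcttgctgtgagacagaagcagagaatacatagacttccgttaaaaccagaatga

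TAP1, which pumps peptides into the endoplasmic reticulum for display on MHC class I, was at 9.28, 9.39, 9.32 and 9.49 in negative arrays and at 8.97 and 8.61 with siRNA 7. The difference was -0.58 (limma adjusted p = 0.105), with 0.18 for siRNA 9 and -0.76 between reagents (adjusted p = 0.0175). PARP9, an ADP-ribosyltransferase family member of the interferon response, had -0.53, from 5.98, 6.48, 6.15 and 6.24 to 5.56 and 5.82. PSMB8, an immunoproteasome subunit, had -0.32. SAMD9, an antiviral factor, had -0.86, but negative array 2, at 7.03, was far above the others, at 5.80, 6.07 and 6.08, and siRNA 7 was at 5.74 and 5.03. DDX60, at -0.69, had the same high negative array, at 6.92 beside 5.58 to 5.96. TLR3, the sensor of double-stranded RNA in endosomes, had -0.58 with siRNA 7 and 0.59 with siRNA 9 (difference -1.18, adjusted p = 0.0239).

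None of the interferon genes was called. At an unadjusted p under 0.05 there were 9, all below 0, where 4.64% of all genes were. Both siRNA 7 arrays lay below all negative arrays for 12 and above them for 0, where 8.03% and 6.38% of all genes did. The list median was -0.08 and -0.09 in the siRNA 7 arrays and -0.05, 0.04, -0.04 and 0.02 in the negative arrays, and with siRNA 9 it was 0.09. NF-kappaB targets, another part of the inflammatory response, had 13 of 29 above 0 and none at an unadjusted p under 0.05.

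**Figure D5:**
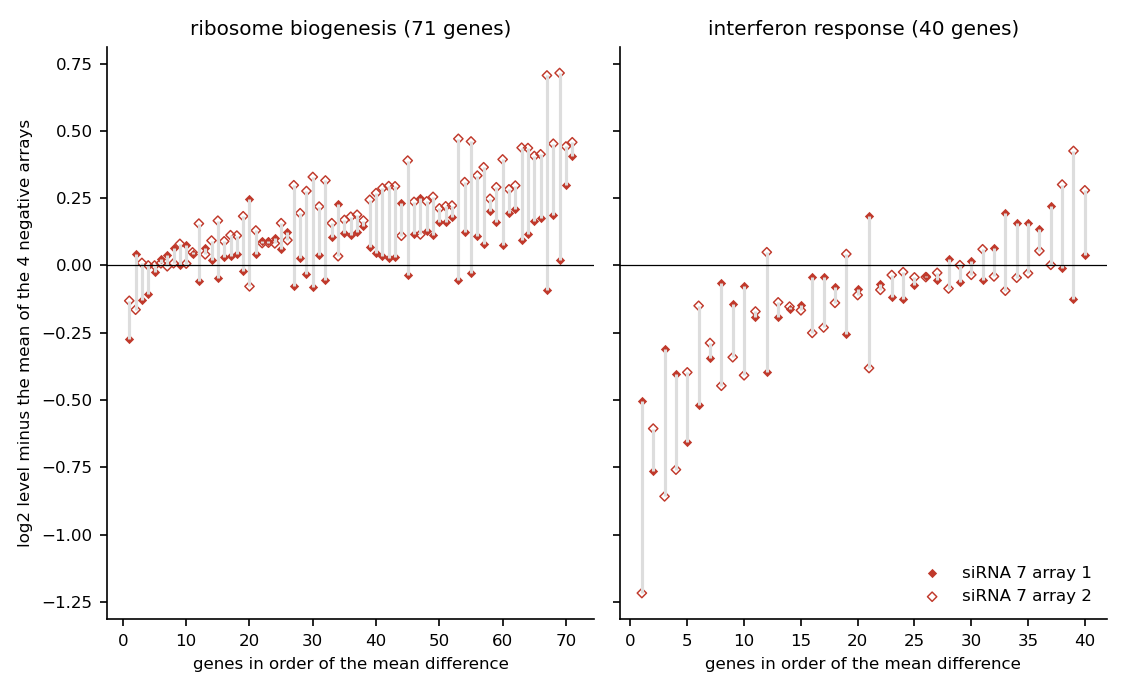
Log2 level in each siRNA 7 array minus the mean of the 4 negative arrays (vertical axis), for every measured gene of the ribosome biogenesis and interferon response lists in order of the mean difference (horizontal axis). By the mean of both arrays 66 of 71 genes of the former lie above 0, and 30 of 40 of the latter lie below.

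Metallothioneins, small cysteine-rich proteins that hold zinc and copper, lay mostly below 0. The list, which also holds the regulator MTF1 and the zinc exporter SLC30A1, had 9 of 12 genes below 0, a median of -0.13 and none called. The list median was -0.16 in siRNA 7 array 1 and -0.10 in array 2, and the negative arrays ranged from -0.13 to 0.18, so array 2 lay inside their range. MT1H was at 9.65, 9.25, 9.28 and 9.27 with negative siRNA and at 8.72 and 9.05 with siRNA 7, a difference of -0.48 (limma adjusted p = 0.310). MT1E had -0.26, MT1X had -0.23 and MT2A, the most widely expressed form, had -0.14 and -0.08 on its 2 probe sets. MTF1, the zinc-sensing transcription factor that drives these genes, was above 0 at 0.31, from 9.62, 9.78, 9.75 and 9.72 to 9.94 and 10.11. MT1 genes are near-identical copies, so their probe sets may share signal, and with siRNA 9 MT1H had -0.51.

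Metal response elements were looked for by their core TGCNCNC, on either strand, in the same 250 bases. The core was in 6 of 7 promoters of the list (85.7%) and in 49.1% of all promoters, since it is short. MT1H and MT1X are shown, with capitals for the core, as named members below 0 in which the core recurs, at chr16:56669564-56669813 and chr16:56682220-56682469 on the plus strand.
MT1H: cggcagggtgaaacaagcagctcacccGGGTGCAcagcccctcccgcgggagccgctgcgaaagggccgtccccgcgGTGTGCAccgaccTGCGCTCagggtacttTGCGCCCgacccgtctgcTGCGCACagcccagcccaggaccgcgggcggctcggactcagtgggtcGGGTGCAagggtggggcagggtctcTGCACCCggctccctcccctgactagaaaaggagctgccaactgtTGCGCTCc
MT1X: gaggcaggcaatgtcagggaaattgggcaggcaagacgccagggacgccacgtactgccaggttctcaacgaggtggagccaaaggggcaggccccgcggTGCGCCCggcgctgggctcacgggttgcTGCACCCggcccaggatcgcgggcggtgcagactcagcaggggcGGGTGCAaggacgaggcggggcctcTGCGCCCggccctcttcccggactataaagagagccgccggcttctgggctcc

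Desaturases and acyltransferases had the smallest p-values among lipid synthesis genes. Of 38 measured, 21 lay below 0, with a median of -0.05 and none called, and 7 had an unadjusted p under 0.05, all below 0 (4.64% of all genes). The list median was -0.07 in siRNA 7 array 1 and -0.01 in array 2, and the negative arrays ranged from -0.03 to 0.02. FADS1, a desaturase of polyunsaturated fatty acids, was at 9.51, 9.70, 9.51 and 9.67 with negative siRNA and 9.26 and 8.77 with siRNA 7, a difference of -0.59 (limma adjusted p = 0.155). FADS3 and FADS2, its neighbours in the genome, had -0.34 and -0.32, and SCD, which makes oleate, had -0.29. AGPAT5 and GPAM, acyltransferases of glycerolipid synthesis, had -0.45 and -0.32. AGPAT5 had 0.30 with siRNA 9 (difference -0.75, adjusted p = 0.0104), while GPAM had -0.70. Of 19 cholesterol synthesis genes 8 lay above 0 and none reached an unadjusted p of 0.05.

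The medians of the replication and mitosis lists lay on opposite sides of 0, but neither list had both siRNA 7 arrays outside the negative range. Of 50 DNA replication genes 32 lay below 0 (median -0.05), and 11 had both siRNA 7 arrays below all negative arrays, beside 8.03% of all genes. The replication median was -0.07 in siRNA 7 array 1 and -0.02 in array 2, and the negative arrays ranged from -0.04 to 0.06. WDHD1, a replisome scaffold, had -0.38, POLA2 and PRIM2 of the primase complex had -0.32 and -0.26, and DTL, a ligase adaptor, had -0.22, from 10.93, 10.92, 10.95 and 10.91 to 10.67 and 10.74. Of 53 mitosis genes 38 lay above 0 (median 0.06), with PLK1, a mitotic kinase, and CCNB1, the cyclin that activates CDK1 at entry to mitosis, each at 0.27. The mitosis medians were 0.02 and 0.11 with siRNA 7, within the range of the negative arrays at -0.13 to 0.19. No gene of either list was called. Of 28 p53 targets 13 lay above 0, with CDKN1A, the cell cycle inhibitor p21, at 0.32 and RRM2B, a ribonucleotide reductase subunit, at -0.39.

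Signalling lists differed in how many genes had a small p. Of 21 Wnt targets 17 lay above 0 with a median of 0.07, inside the negative range of -0.14 to 0.14, and DKK1, a secreted inhibitor of the pathway, had 0.40. Among 41 mTOR components 20 lay above 0. An unadjusted p under 0.05 was found for 3 of them (7.32%), near the 7.41% of all genes. They were RRAGC, a GTPase that brings mTOR to lysosomes, at -0.44, RICTOR of the second mTOR complex at -0.37 and PRKAA2, a catalytic subunit of AMPK, at -0.33. Of 39 growth factor receptor kinases 24 lay above 0, with FGFR1 at 0.35. The median of these kinases was 0.02, inside the negative range of -0.05 to 0.06. Of them 4 higher and 1 lower had an unadjusted p under 0.05, where 2.77% and 4.64% of all genes did. Of 26 genes of ERK output, which are induced by that kinase cascade, 5 higher and 1 lower had such a p, where 2.77% and 4.64% of all genes did. Among them ETV1, a transcription factor, had -0.50, while the phosphatases DUSP7 and DUSP4 had 0.28 and 0.25. No gene of these lists was called.

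Epithelial and mesenchymal genes were not called either. Of 33 adhesion genes 22 lay below 0, among them PKP2, a desmosomal protein, at -0.31, from 10.74, 10.88, 10.75 and 10.84 to 10.41 and 10.58. MARVELD2 of tricellular junctions and the integrin ITGB4 each had -0.29, and P-cadherin (CDH3) had 0.35. Of 28 mesenchymal genes 18 lay below 0. FN1, the gene of fibronectin, had -0.56, from 6.48, 6.61, 6.53 and 6.36 to 6.25 and 5.62, and SNAI1, a repressor of E-cadherin, had 0.28. Gastric and intestinal differentiation lists each had 1 gene at an unadjusted p under 0.05 (4.76% and 3.85%, beside 7.41% of all genes). They were BHLHA15, a factor of secretory cells, at 0.42 and SLC5A1, the glucose transporter, at 0.41. SLC5A1 rested on siRNA 7 array 2, at 6.78 beside 6.01 in array 1.

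Genes of the amino acid response lay apart between the siRNA 7 arrays. Over 39 measured genes the median was 0.14 in array 1 and -0.20 in array 2, and the negative arrays ranged from -0.22 to 0.19. INHBE, an activin subunit induced by this response, was at 9.16 and 7.16 in the siRNA 7 arrays, and CHAC1, which degrades glutathione, at 10.85 and 9.32. CTH, of cysteine synthesis, was at 9.82 and 8.37. Across all genes the siRNA 7 arrays differed by a median of 0.126, and the 6 pairs of negative arrays by a median of 0.133. The siRNA 7 arrays differed by over 0.5 in 452 genes. Negative arrays 1 and 2, a less alike pair of negative arrays (correlation 0.992), differed by over 0.5 in 872. Of 34 genes of hypoxia and glycolysis 24 lay below 0, with PDK1, which holds pyruvate back from mitochondria, at -0.31. Of 27 genes of the unfolded protein response 18 lay above 0, within the range of the negative arrays.

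The calls of siRNA 7 were set beside siRNA 9 through the test of the difference itself. Over all genes, 428 probe sets (2.23%) differed between reagents at a limma adjusted p under 0.05, 157 higher with siRNA 7 (0.82%) and 271 lower (1.41%). Among the called genes CLCA1, REEP3, PHYH, CIAO2A, MBNL3, HECTD3, CAP2 and USP28 passed this test. TRIM44, CYP2S1, ASF1A, ALDH9A1 and FBXO28 did not. With siRNA 9 the means of TRIM44, CYP2S1, ASF1A, ALDH9A1 and FBXO28 lay between those of the other groups, at -0.78, -0.40, -0.36, -0.28 and -0.16. PHYH, MBNL3, HECTD3 and CAP2 lay between them too, close to the negative group, at -0.03 to -0.06.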

How the data were processed

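RNA of the 8 samples was hybridised as biotin-labelled sense cDNA to Affymetrix Human Gene 1.0 ST arrays, per the labels' protocols and platform table. The authors deposited log2 expression levels, a value for each of 32321 probe sets on every array. The submitters' processing notes name limma. At equal rank the arrays differed by at most 0.18, so they share nearly a common distribution. How they were normalized, and on which genome build, is not given in the sources used here.

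Gene names came from the platform annotation, looked up in RefSeq (GRCh38.p14; 19128 IDs found, 0 symbols changed). Probe sets with several symbols (1388) or none (11775) were left out. There were 637 genes with more than 1 probe set, and lists used the brightest. Groups followed the treatment labels. A limma fit of 3 group means over all 8 arrays, with no filter on level, gave 2-sided moderated tests. P-values were adjusted by Benjamini-Hochberg over all 19158 probe sets, with a threshold of 0.05. Standard errors (SE) are those of the fit. The fit was tested on simulated data. The number of arrays limits the precision.

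The members and lists were chosen with earlier results of these data known; there were 35 lists (1203 of 1303 listed genes measured) and 10 added after values were seen. Named were TRIM44, called genes, the 14 genes each way of smallest unadjusted p with no overlap between groups, the 5 largest uncalled each way, and up to 4 members per list, kept only at an unadjusted p under 0.05. Family members and a further 17 genes, among them CLCA2, CLCA4, MUC2, ATOH1, TLR3, DDX60 and SMURF1, were named after their values were seen. INHBE, CHAC1 and CTH were named for the gap between the siRNA 7 arrays. Alternatives were median centring, quantile normalization, testing the brightest 50% of probe sets or all of them, a trended robust prior, array weights, the 6 arrays alone, a replicate block, and each array left out. Software was limma 3.58.1 with statmod 1.5.0 in R 4.3.3, and matplotlib 3.10.9.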

Additional observations from a re-analysis of the deposited data

Results flagged for a closer look

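In the 4 negative arrays, 5 of the 160 named probe sets had an array far from the others by Dixon's criterion, which chance meets in about 1 of 20 groups. Negative array 2 stood apart for RRP12, at 9.765 beside 9.914 to 9.935, for GNL2, at 10.86 beside 10.98 to 11, and for AGPAT5, at 10.46 beside 10.29 to 10.32. Negative array 1 stood apart for MT1H, at 9.646 beside 9.25 to 9.284, and for UTP14A, at 9.989 beside 10.20 to 10.23.

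The effects of siRNA 7 and siRNA 9 differed for 38 named probe sets in the limma test of the difference, adjusted over 19158 probe sets. The 2 effects share the negative arrays. Higher with siRNA 7 than with siRNA 9, as log2 differences, were CLCA1 (1.79), CYP2B6 (1.36), PTBP2 (0.98), FKBP14 (0.91), SLC28A2 (0.85), GCG (0.82), SYP (0.82), PER2 (0.73), UBXN8 (0.64), PLK1 (0.64), UBE2S (0.62) and AASDHPPT (0.61). Lower were USP28 (-1.39), TLR3 (-1.18), SMIM8 (-1.13), CIAO2A (-0.89), GSTA2 (-0.86), REEP3 (-0.81), MBNL3 (-0.79), ALDH6A1 (-0.78), TAP1 (-0.76), ZNF528 (-0.76), AGPAT5 (-0.75), WDHD1 (-0.73), SASH1 (-0.72), TRIM29 (-0.67), CYP2U1 (-0.65), HECTD3 (-0.64), PRKAA2 (-0.64), FBXO45 (-0.62), REEP3 (-0.59), PHYH (-0.56), PKP2 (-0.55), CAP2 (-0.55), DICER1 (-0.55), RRAGC (-0.52), EHHADH (-0.52) and SMURF2 (-0.46). REEP3 appears with both probe sets.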

How the results depend on the processing

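Against 13 calls (1 higher, 12 lower), quantile normalization gave 19 (1 and 18), the upper 50% of probe sets by level 64 (10 and 54), a trended robust prior 83 (18 and 65) and array weights 70 (16 and 54). Median centring gave 1 (1 and 0), and so did the 6 arrays compared alone (1 and 0), the gene being CLCA1. Testing all 32321 probe sets gave 0 in limma, with 1826 at an unadjusted p under 0.05. The cause of these shifts was not tested, apart from the number of probe sets or arrays that a setting changes by construction. With each array left out the total ranged from 1 to 35, with 1 to 11 higher and 0 to 24 lower. TRIM44 kept its direction in all 16 alternatives and was called in 6, at -0.83 after median centring (adjusted p = 0.066), -0.84 with all probe sets (0.262) and -0.84 in the 6 arrays (0.117). With each array left out it was -1.05 to -0.63. Leaving out either siRNA 9 array repeats the fit of the 6 arrays, which the 16 alternatives thus count more than once. As the replicate block, the number in the sample title gave 0 calls in limma (0 higher, 0 lower, 1665 at an unadjusted p under 0.05), TRIM44 at -0.91 (0.152) and a smallest adjusted p of 0.0664, that of CLCA1. The groups share only 2 numbers. The difference between number 1 and number 2 correlated at 0.326 between negative siRNA and siRNA 7, the groups compared here. It correlated at 0.114 between negative siRNA and siRNA 9 and at 0.0244 between the reagents. The sample titles give only the number, so whether it marks a shared batch cannot be told. The main fit used no block. The sign turned for the SNORA15 probe set at -0.06, to 0.053 with the block and -0.25 to 0.14 with each array left out, for CLCA4, to -0.018 with the block and -0.064 to 0.099 with each array left out, and for the MT2A probe set at -0.08, at -0.16 to 0.00038 with each array left out. Over the named probe sets, 2303 values kept their direction and side of the threshold, 79 passed it newly and 117 no longer passed. Of the list medians 24 moved by more than the spread of the negative arrays and 694 did not. Ribosome biogenesis was at 0.21 without siRNA 7 array 1 and 0.07 without array 2. The lack of detection calls limits what can be said of dim probe sets.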
